A study of Mus musculus with 5 samples.

Results

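Dendritic cells were looked for in 2 droplet single-cell RNA libraries of T cells enriched from 4T1 tumors. A barcode was a member when it carried unique molecular identifiers (UMIs, counts of single RNA molecules) of at least 2 of the 7 genes Flt3, Zbtb46, Xcr1, Clec9a, Ccr7, Fscn1 and Ccl22, at least 5 UMIs of H2-Ab1, fewer than 10 summed UMIs of C1qa, C1qb and C1qc, and none of Cd3e. This rule found 72 members among 6810 kept barcodes, those in which 500 or more genes were detected and mitochondrial UMIs did not exceed 10%. They were 31 of 3560 in the sensitive library and 41 of 3250 in the resistant library. The members were chosen by these genes, so the levels of the rule genes and of the other genes that tell members from non-members are given as a description. Members were split, as the rule asks, into 27 cells with a UMI of Ccr7 or Fscn1 and 45 cells with neither.

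4T1 is a BALB/c mammary carcinoma line, here carrying Thy1.1 (CD90.1), and was grown in the mammary fat pad of female BALB/c mice labelled as 12 weeks old. Both groups received doxorubicin (DOX), an anthracycline that damages DNA, injected into a vein 3 times at intervals of 3 days, 5 mg/kg each time. The tumors behind the sensitive library had slowed their growth under the drug and those behind the resistant library had not. T cells were left after magnetic depletion of other immune cells and of CD90.1+ cancer cells, a step designed to remove dendritic cells too, so the members are cells that the depletion left behind and their number is not their abundance in the tumor. Each library pooled 3 tumors, with 1 library per group and no control library of T cells, so no p-value could be given. Intervals below are 95% and cover counting error only.

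Dendritic cells take up antigen, cut it into peptides and show these to T cells on major histocompatibility complex (MHC) molecules. Conventional type 1 dendritic cells (cDC1) depend on the transcription factors IRF8 and BATF3, carry the chemokine receptor XCR1 and the dead-cell receptor CLEC9A, and are known for cross-presenting tumor antigen to CD8+ T cells. Type 2 cells (cDC2) serve CD4+ T cells more, and mature dendritic cells of either kind turn on CCR7, which guides them to lymph nodes, and FSCN1, an actin-bundling protein that is also made by fibroblasts and many cancer cells.

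The 45 members without Ccr7 and Fscn1 carried the genes of cDC1. Both Xcr1 and Clec9a were seen in 42 of the 45 cells, in 14 of 14 sensitive and 28 of 31 resistant cells. Xcr1 ran from 1 UMI through a median of 5.5 to 35 UMIs per sensitive cell and from 0 through 4 to 32 per resistant cell, and the cells of the libraries overlapped over nearly the whole range. Clec9a ran from 1 through 5.5 to 16 UMIs in sensitive cells and from 0 through 4 to 19 in resistant cells. Of cDC1 genes that the rule did not use, Naaa, a lysosomal amidase, was found in all 14 sensitive and all 31 resistant cells, with medians of 29.5 and 22 UMIs. Irf8 was found in 14 of 14 and 30 of 31 cells, and Wdfy4, which is needed for cross-presentation of cell-bound antigen, in 14 of 14 and 26 of 31. The 14 listed cDC1 genes together made up 84.6 of every 10000 UMIs in sensitive and 82.3 in resistant cells of this class. This list includes Xcr1 and Clec9a, by which the rule chose the cells, so the sum is a description. In macrophage-gated barcodes of the same libraries (at least 10 C1q UMIs, no Cd3e) they made up 5.76 and 6.33. These cells are called cDC1-like below.

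The regions around the starts of both receptor genes are shown because Xcr1 and Clec9a together marked 42 of the 45 cells. The sequences are RefSeq's (GRCm38.p6), 250 bases before the start to 50 after it, 5′ to 3′ along the gene. Xcr1 lies on the minus strand at chr9:123861980-123862279 and Clec9a on the plus strand at chr6:129408612-129408911.
Xcr1: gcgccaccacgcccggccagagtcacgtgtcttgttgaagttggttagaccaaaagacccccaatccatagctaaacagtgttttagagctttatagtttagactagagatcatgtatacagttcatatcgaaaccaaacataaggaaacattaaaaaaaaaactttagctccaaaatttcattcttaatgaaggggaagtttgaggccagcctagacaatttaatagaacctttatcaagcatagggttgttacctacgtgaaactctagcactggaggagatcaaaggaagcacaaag
Clec9a: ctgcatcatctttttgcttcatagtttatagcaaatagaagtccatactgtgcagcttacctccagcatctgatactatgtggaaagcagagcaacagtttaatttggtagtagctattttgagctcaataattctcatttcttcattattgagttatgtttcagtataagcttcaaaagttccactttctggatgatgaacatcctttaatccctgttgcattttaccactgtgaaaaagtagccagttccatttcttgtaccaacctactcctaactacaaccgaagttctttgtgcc
Neither window held GAAA, any 2 bases and again GAAA (an interferon regulatory factor motif), GGAA, any 2 bases and GAAA (a composite motif of ETS and interferon regulatory factors) or TGANTCA (AP-1, the motif of BATF partners), searched on both strands, so no base is in capitals. The same letters were found in 3.44%, 2.72% and 7.81% of all 32851 promoter windows of this length.

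Markers of T cells, B cells, macrophages, fibroblasts and epithelium were near 0 in the cDC1-like class, while some listed for monocytes, plasmacytoid cells, cDC2 and endothelium were present. The 6 T cell markers summed to 0.0431 UMIs per 10000 of sensitive and 0.0948 of resistant cells, the 8 macrophage markers to 0.173 and 0.451, the 5 fibroblast markers to 0.0863 and 0.0474 and the 4 epithelial markers to 0.0431 and 0.0711, and no B cell marker was seen. The 6 markers of natural killer and innate lymphoid cells summed to 0.129 and 0.545. The 5 neutrophil markers summed to 0.0431 and 0.0474 and the 2 Langerhans cell markers to 0.0863 and 0.285. Of the 4 endothelial markers 1 reached 20 UMIs. The 6 monocyte markers summed to 6.04 and 6.38 UMIs per 10000, in 11 of 14 and 28 of 31 cells, most of them from Plac8. The 5 plasmacytoid markers summed to 5.52 and 3.98, in 13 of 14 and 28 of 31 cells, most of them from Bst2, while Siglech and Ly6d were at 0 UMIs. The 12 cDC2 genes summed to 3.37 and 3.79, in 11 of 14 and 25 of 31 cells, with Cfp, Klf4, Mgl2 and Clec10a giving the most UMIs and Cd209a and Irf4 at 0. For a gene at 0, 3 UMIs would be 12.9 and 7.11 counts per 1000000 UMIs (CPM). Ptprc (CD45), the pan-leukocyte phosphatase, had a UMI in 13 of 14 sensitive and 24 of 31 resistant cells. A resistant cell of 22393 UMIs had no UMI of Xcr1, Clec9a or Irf8 but 22 of Naaa and 3 of Zbtb46, and another resistant cell had 17 UMIs of Ncr1, a natural killer cell receptor.

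The 27 members with Ccr7 or Fscn1 did not match their label as mature dendritic cells. Only 5 of them, 3 sensitive and 2 resistant, had a Ptprc UMI and fewer than 5 UMIs of the collagens Col1a1, Col1a2 and Col3a1. Of the other 22 cells, 21 carried at least 100 collagen UMIs or at least 10 of the keratins Krt8 and Krt18, and 1 had 20 UMIs of Cdh5, the endothelial cadherin. In 20 of the 27 the rule was met with Fscn1 and Zbtb46, and Zbtb46 never exceeded 2 UMIs in a sensitive or 1 in a resistant cell. These cells were deep, with 10185 through a median of 30746 to 70019 UMIs per sensitive cell and 7473 through 26237 to 45481 per resistant cell. Fscn1 was also found in 73.8% of sensitive and 73.5% of resistant collagen-gated barcodes (at least 100 collagen UMIs, no Ptprc, not members), expected to be 22.86% and 20.02% after thinning each to 2000 UMIs. Xcr1 and Clec9a were at 0 in all 27 cells. The class is therefore called by its rule, the members with Ccr7 or Fscn1, and given no cell type name.

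**Figure D1:**
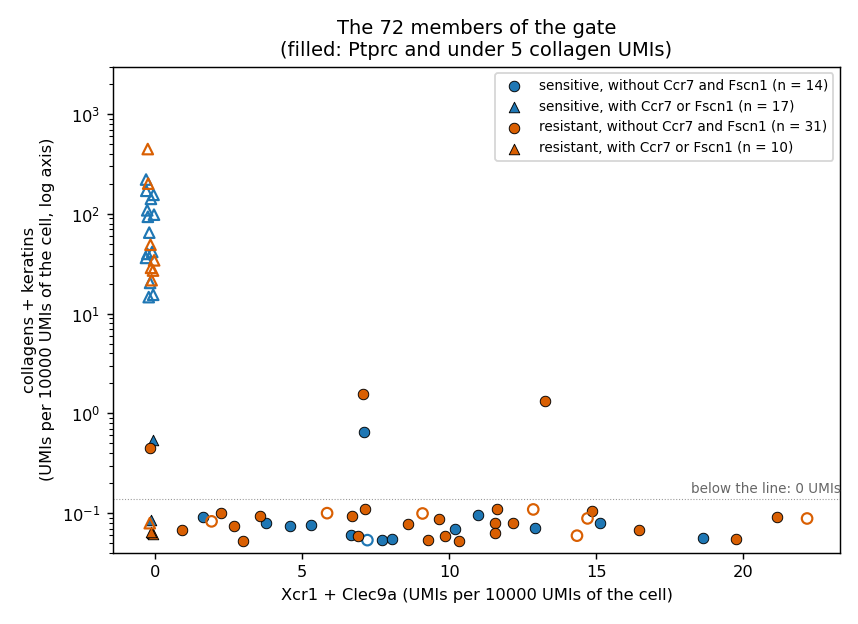
Each point is 1 of the 72 members. The horizontal axis gives Xcr1 and Clec9a UMIs per 10000 UMIs of the cell, with cells at 0 spread slightly to the left, and the vertical log axis gives collagen and keratin UMIs per 10000, with cells at 0 spread below the dotted line. Filled points have a Ptprc UMI and fewer than 5 collagen UMIs. The 22 open triangles lack Ptprc or carry collagen, and 21 of them lie above all circles on the collagen and keratin axis.

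The 5 cells of this class with Ptprc and little collagen differed among themselves. A sensitive cell of 10185 UMIs had 42 UMIs of Ccr7, 40 of Fscn1, 49 of Ccl22, a chemokine that draws regulatory T cells, and 11 of Il4i1, an amino acid oxidase, but 6 of H2-Ab1. A resistant cell of 10628 UMIs had the nearest pattern, with 38 UMIs of Ccr7, 8 of Fscn1 and 7 of Ccl22. Another sensitive cell had 36 UMIs of Il4i1 and 145 of H2-Ab1 with 5 of Fscn1 and none of Ccr7. The remaining pair, 1 from each library, had Ccl17, the sister chemokine of Ccl22, at 32 and 26 UMIs with Ccr7 at 1 and 5. With 3 and 2 cells, ratios between the libraries rest on few cells and are given below only as an alternative.

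Members were 0.871% (0.592 to 1.23) of kept barcodes among sensitive and 1.26% (0.907 to 1.71) among resistant ones, and the ratio of 0.690 (0.434 to 1.10) has an interval that holds 1, though not over barcodes without Cd3e, where it was 0.6184 (0.390 to 0.980). The cDC1-like cells alone were 0.393% (0.215 to 0.659) and 0.954% (0.649 to 1.35), a ratio of 0.412 (0.220 to 0.774). Of kept barcodes without Cd3e they were 0.917% and 2.48%. Of cDC1-like, macrophage-gated and monocyte-gated barcodes together (Lyz2 with at least 2 of Ly6c2, Ccr2, Csf1r and Fcgr1, with Ptprc and little collagen) they were 7.14% (3.96 to 11.7) and 16.5% (11.5 to 22.6). Members with Ccr7 or Fscn1 ran the other way, 17 cells (0.478%) against 10 (0.308%), with a ratio of 1.55 (0.712 to 3.38) that also holds 1. Their share of members was 54.8% (36.0 to 72.7) for the sensitive tumors and 24.4% (12.4 to 40.3) for the resistant ones, and was 18.8% and 7.69% among members with Ptprc and little collagen. The mitochondrial limit removed 3.11% of sensitive and 26.5% of resistant barcodes and moves with these shares. Without it the cDC1-like ratio was 0.551 (0.302 to 1.004), an interval that holds 1, and that of all members was 0.948. How the depletion acted on dendritic cells in each library was not tested, and with pools of 3 tumors the difference cannot be told apart from a difference between preparations.

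**Figure D2:**
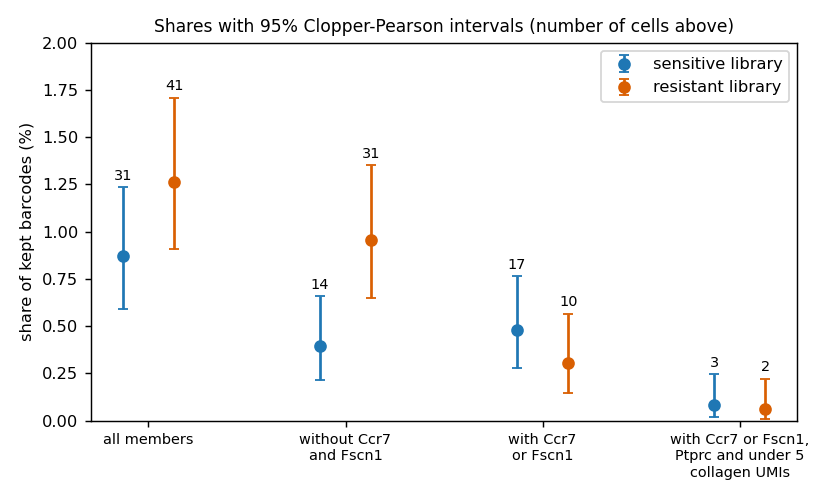
Members as a percentage of kept barcodes, for all members and for 3 classes, in the sensitive (blue) and resistant (orange) library. Bars are 95% Clopper-Pearson intervals and the numbers of cells stand above them. The intervals of the cDC1-like class, 0.215 to 0.659% and 0.649 to 1.35%, overlap from 0.649 to 0.659% only, and those of the other classes overlap widely.

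The threshold on H2-Ab1 met the classes unequally. Of the sensitive members 7 had 5 to 6 H2-Ab1 UMIs, all of them with Ccr7 or Fscn1, against 0 resistant members. Just outside, 3 barcodes of each library met the rest of the rule with 3 to 4 H2-Ab1 UMIs. The lowest H2-Ab1 count of a cDC1-like cell was 45 among sensitive and 7 among resistant cells. With 2 of the 7 genes just reached stood 16 sensitive and 18 resistant members, of which 1 and 9 were cDC1-like, and 98 and 87 barcodes had 1 gene only. Left out by Cd3e alone were 2 and 3 barcodes, of which 1 and 3 carried both Xcr1 and Clec9a. Of barcodes that met the rule but failed the filter, 1 of 2 sensitive and 6 of 7 resistant ones had both receptors.

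Within the cDC1-like class, few genes differed between the libraries by size. UMIs were summed over the 14 sensitive cells (231788 UMIs) and the 31 resistant cells (421745 UMIs) and compared as CPM, with exact conditional binomial intervals. Of 1465 genes with at least 50 UMIs, 63 (4.3%) were past 2-fold, 40 (2.73%) higher and 23 (1.57%) lower in the sensitive cells. With ratios centred on the median gene the split was 34 higher and 32 lower. The sensitive cells had a median of 14362 UMIs and 3.49% mitochondrial UMIs and the resistant cells of 12717 UMIs and 4.95%, and the part of depth and mitochondrial share in the ratios was not tested. The counts below are over listed genes with at least 20 UMIs, of which there were 3404 in all, 331 of them (9.72%) past 2-fold, 184 (5.41%) past 2-fold higher and 147 (4.32%) past 2-fold lower, with a median log2 ratio of 0.06.

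Identity and antigen presentation genes lay within 2-fold. Of the 14 cDC1 genes 0 were past 2-fold, with a median log2 ratio of 0.07, Xcr1 and Clec9a among them. The rule chose cells by these receptors, so their levels are a description, 513 CPM in sensitive and 455 CPM in resistant cells for Xcr1 and 375 and 448 CPM for Clec9a. Batf3 had the only interval in the list apart from that of Irf8 that lay above 1, with ratios of 1.48 (1.04 to 2.10) for Batf3 and 1.14 (1.02 to 1.27) for Irf8. The MHC class II genes, which present peptide to CD4+ T cells, gave 0 of 11 past 2-fold. H2-Ab1, which the rule required, was at 7403 and 7329 CPM. H2-Aa, the partner chain that the rule did not use, had a ratio of 1.09 (1.04 to 1.13). The invariant chain Cd74 was at 29868 and 30715 CPM, a ratio of 0.972 (0.944 to 1.00). H2-Oa, which restrains peptide loading, had a ratio of 0.620 (0.321 to 1.14), or 0.3495 without its top cell. Of the 14 MHC class I genes 0 were past 2-fold. The peptide transporter Tap1 had a ratio of 1.33 (1.03 to 1.72), and the heavy chain genes H2-K1 and H2-D1 had ratios of 0.829 (0.698 to 0.982) and 0.802 (0.699 to 0.918).

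Interferon-stimulated and cell cycle genes were the lists with most members past 2-fold. Of 11 interferon-stimulated genes with at least 20 UMIs, 7 were at least 2-fold higher in the sensitive cDC1-like cells and 0 lower, against 5.41% higher among all genes, and the list's median log2 ratio was 1.22. Irf7, the transcription factor that amplifies type I interferon, ran from 0 through a median of 2.66 to 22.6 UMIs per 10000 in sensitive cells and from 0 through 1.499 to 7.08 in resistant cells. The cells overlapped, and summed Irf7 was 582 CPM (135 UMIs in 13 of 14 cells) against 221 CPM (93 UMIs in 22 of 31 cells), a ratio of 2.64 (2.01 to 3.48) that was 2.05 without the cell that had most. Isg15, a ubiquitin-like modifier, ran from 0 through 1.63 to 15.1 per 10000 in sensitive and from 0 through 0.926 to 10.4 in resistant cells. Its ratio was 2.46 (1.78 to 3.42) and fell below 2-fold, to 1.86, without its top cell. Ifit2, an inhibitor of translation of viral RNA, had 22 UMIs in 4 of 14 sensitive cells and 0 in the 31 resistant cells. Its ratio was 13.3 when 3 UMIs are set for the resistant group, without the counting error of the 22 UMIs. Oasl1 had a ratio of 2.64 (1.44 to 4.92), Stat2, a signal carrier of the interferon receptor, 2.33 (1.34 to 4.10), Ifi44 2.91 (1.24 to 7.18) and Ifi47 2.21 (1.03 to 4.84). The other 4 genes lay inside 2-fold, among them Ifi205 at 1.82 (1.35 to 2.45), Isg20 at 0.862 and the GTPase Gbp2 at 0.569 (0.163 to 1.62), or 1.46 without its top cell. Ifi47, at 1.69, also came inside 2-fold without its top cell.

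Summed over the list, interferon-stimulated genes made up 22.2 of 10000 UMIs in sensitive and 10.1 in resistant cDC1-like cells. Per cell the sum ran from 1.90 through a median of 15.2 to 78.5 in the sensitive library and from 1.55 through 8.48 to 30.7 in the resistant library, so the ranges overlapped and 3 sensitive cells lay above all resistant ones. With each of the 45 cells left out in turn, between 5 and 8 genes were past 2-fold higher. In macrophage-gated barcodes the same sum was 18.6 (sensitive) and 21.4 (resistant), in monocyte-gated ones 23.4 and 24.2, and in CD8 T cells (Cd3e with Cd8a or Cd8b1) 16.2 and 13.6. In members with Ccr7 or Fscn1 it was 22.9 and 12.5, with cell medians of 9.24 and 8.61, and 2 of 11 listed genes were past 2-fold higher, against 14.7% of all genes in that class. The sensitive cell with most, at 103 per 10000, was among the barcodes of highest doublet score.

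The promoters of Isg15 and Socs1 are shown beside that of Irf7 because each gene's summed level was past 2-fold higher in the sensitive cDC1-like cells. Whether they were higher in the same cells was not tested. The windows are RefSeq's on GRCm38.p6, all on minus-strand genes, at chr4:156200769-156201068 for Isg15, chr7:141266375-141266674 for Irf7 and chr16:10785487-10785786 for Socs1. Capitals mark matches to the first of those motifs (GAAA, any 2 bases, GAAA) on either strand, which overlap each other in Isg15 and Socs1.
Isg15: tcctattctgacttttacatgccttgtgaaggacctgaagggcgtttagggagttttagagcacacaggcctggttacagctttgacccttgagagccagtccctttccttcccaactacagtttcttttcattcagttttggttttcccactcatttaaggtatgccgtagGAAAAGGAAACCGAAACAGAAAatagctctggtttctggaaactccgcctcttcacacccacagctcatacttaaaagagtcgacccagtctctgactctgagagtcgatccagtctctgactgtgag
Irf7: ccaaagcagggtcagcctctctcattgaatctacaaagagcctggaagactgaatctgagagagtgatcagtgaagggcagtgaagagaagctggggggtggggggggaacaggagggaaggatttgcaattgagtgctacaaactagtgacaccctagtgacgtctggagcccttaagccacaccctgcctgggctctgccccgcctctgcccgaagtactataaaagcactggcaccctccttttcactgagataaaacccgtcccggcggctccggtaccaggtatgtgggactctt
Socs1: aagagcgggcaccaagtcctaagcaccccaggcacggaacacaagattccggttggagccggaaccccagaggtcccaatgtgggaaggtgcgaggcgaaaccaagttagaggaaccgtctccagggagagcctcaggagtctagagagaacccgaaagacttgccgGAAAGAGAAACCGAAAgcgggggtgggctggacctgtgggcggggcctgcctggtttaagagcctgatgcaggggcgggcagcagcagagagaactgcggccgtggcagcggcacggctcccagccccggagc
Isg15 held 3 matches, from position -78 to -57 relative to its start, and Socs1 held 2, from -83 to -68. The Irf7 window held none. Of the interferon-stimulated list 16 genes had a window, 19 windows in all, and 9 genes held the letters in at least 1, while 3.44% of all single windows held them. Of the genes past 2-fold higher, Isg15 and Stat2 were among these 9, as were Gbp2 and Ifi205, which lay inside 2-fold. A match is a run of letters and not a shown binding site.

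Cell cycle genes were also higher in the sensitive cDC1-like cells, but the difference lay in few cells. Of 9 genes 6 were at least 2-fold higher, against 5.41% higher among all genes. All 9 had a ratio above 1, with a median log2 ratio of 1.14. Hmgb2, a chromatin protein of dividing cells, had 109 UMIs in 10 of 14 sensitive and 64 UMIs in 18 of 31 resistant cells, a ratio of 3.10 (2.26 to 4.29) that was 1.98 without its top cell. The topoisomerase Top2a had 16 UMIs in 3 sensitive cells and 7 UMIs in 3 resistant cells, a ratio of 4.16 (1.62 to 12.0), or 2.23 without its top cell. Mki67, the proliferation marker, was found in 3 sensitive and 2 resistant cells, with a ratio of 1.65 (0.630 to 4.29), and 10 of the 11 resistant UMIs came from 1 cell, without which it was 16.6. The summed list ran from 0.767 through a median of 6.17 to 71.7 per 10000 in sensitive and from 0 through 5.31 to 35.2 in resistant cells, with nearly equal medians and 3 sensitive cells above every resistant cell. Leaving out each cell in turn left between 1 and 7 genes past 2-fold.

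**Figure D3:**
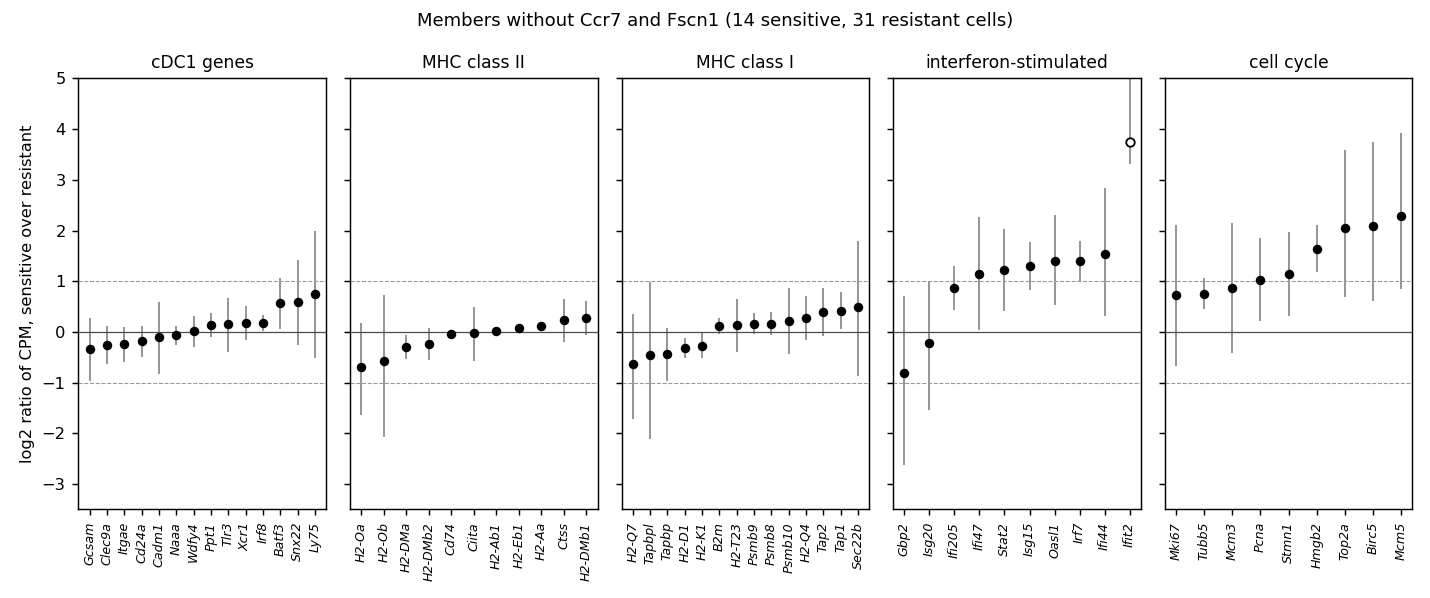
Points give the log2 ratio of CPM, sensitive over resistant, of each listed gene with at least 20 UMIs in the cDC1-like cells, and bars the exact 95% interval of counting error. Dashed lines mark 2-fold. The open point is Ifit2, a bound against 3 UMIs, and 10 of the 11 interferon-stimulated genes are drawn. The cDC1, MHC class II and MHC class I genes lie within 2-fold, and 7 of 11 interferon-stimulated and 6 of 9 cell cycle genes lie at or above the upper line.

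**Figure D4:**
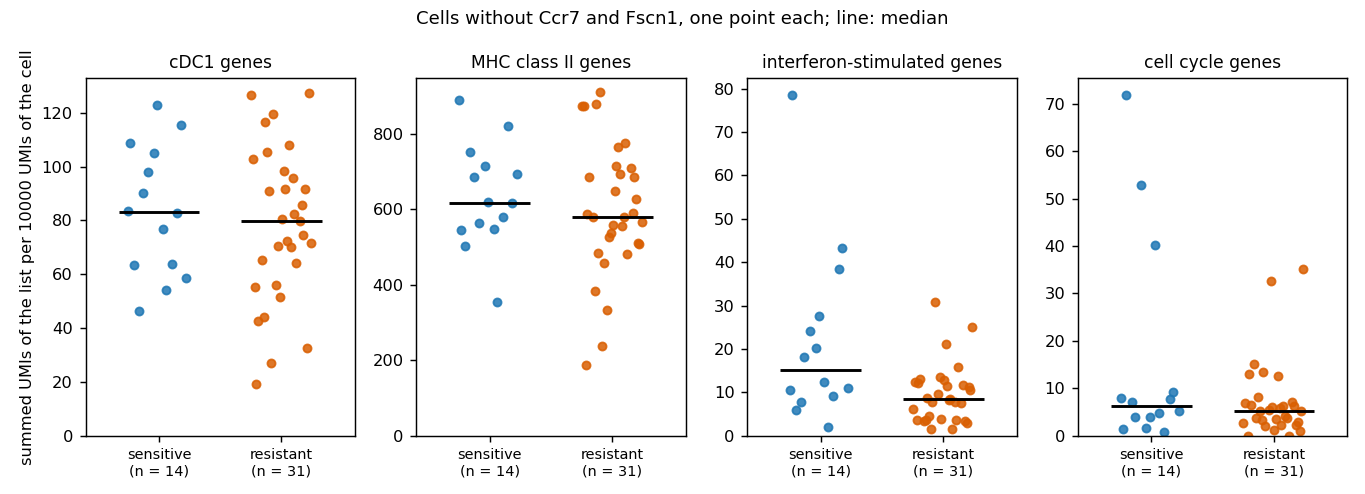
Each point is a cDC1-like cell of the sensitive (blue, 14 cells) or resistant (orange, 31 cells) library, and the black line is the median. The vertical axes give summed UMIs of a list per 10000 UMIs of the cell. Medians of the cell cycle list, 6.17 and 5.31, lie close together with 3 high sensitive cells, and medians of the interferon-stimulated list are 15.2 and 8.48.

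By the rule for named genes, the highest ratios in the cDC1-like class, besides that of Irf7, belonged to genes of several kinds. Hmgb1, a chromatin protein and alarmin, had 35 UMIs against 20, a ratio of 3.18 (1.79 to 5.82). Slfn1, a Schlafen gene tied to interferon and quiescence, had a ratio of 2.67 (1.64 to 4.40), and Socs1, the feedback inhibitor of cytokine signalling, 2.53 (1.66 to 3.88) with UMIs in 10 of 14 and 16 of 31 cells. Mcts1 at 2.43, Acadl, an enzyme of fatty acid oxidation, at 2.40, Tnfaip8 at 2.40 and the nuclear lamina gene Lmnb1 at 2.38 completed this end. The choice of these genes required more than 2-fold without the top cell, and as a mean over single cells Socs1 was at 1.96.

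The lowest ratio was that of Il1b, the gene of interleukin-1β. It had 12 UMIs in 3 of 14 sensitive cells and 134 UMIs in 11 of 31 resistant cells, a ratio of 0.163 (0.0821 to 0.294). A single resistant cell held 78 of the 134 UMIs, and without it the ratio was 0.369. Macrophage-gated barcodes, a rich source of Il1b, had 1536 (sensitive) and 1676 CPM (resistant), against 51.8 and 318 CPM in cDC1-like cells. S100a6, a calcium-binding protein, had a ratio of 0.241 (0.157 to 0.359), or 0.435 without its top cell, and Mbnl2, a splicing factor, 0.245 (0.0939 to 0.541). Pmaip1, a death gene induced by p53, had a ratio of 0.339 (0.137 to 0.728). The mitochondrial genes mt-Atp8 and mt-Nd3 had ratios of 0.211 and 0.2996, beside the higher mitochondrial share of the resistant cells. AY036118 had a ratio of 0.322.

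Of the 12 listed p53 target genes 5 reached 20 UMIs. Of these 1 had a ratio above 1 and 2 were past 2-fold, both lower, against 4.32% lower among all genes, with a median log2 ratio of -0.34. The list summed to 9.58 per 10000 in sensitive and 12.99 in resistant cells, with cell medians of 10.04 and 9.87. These were Pmaip1 and Ccng1, a cyclin induced by p53, at 0.460 (0.271 to 0.750), or 0.544 without its top cell. Cdkn1a, the p53-induced brake on the cell cycle, was at 324 and 410 CPM, a ratio of 0.789 (0.593 to 1.04). Of 12 immediate-early genes Jun was 2.08-fold (1.61 to 2.68) higher and Dusp1, a phosphatase that ends kinase signals, lower at 0.382 (0.240 to 0.586), or 1.54 and 0.526 without the top cell of each, with Fos at 0.942 (0.797 to 1.11). Among 6 genes of the NF-κB pathway, Traf1 was higher at 2.77 (1.55 to 5.06), or 1.36 without its top cell, and the inhibitor Nfkbia lower at 0.392 (0.203 to 0.706). Beside these 2 lists, 5.41% of all genes were past 2-fold higher and 4.32% lower.

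Genes for signals that dendritic cells pass to T cells varied in level. The 11 costimulation genes summed to 6.39 per 10000 in sensitive and 6.76 in resistant cDC1-like cells, and to 4.32 and 5.69 in macrophage-gated barcodes. In monocyte-gated barcodes they summed to 6.42 (sensitive) and 4.67 (resistant). Il12b, which drives T helper 1 responses, had 0 UMIs in the sensitive cells and 6 UMIs in 2 of 31 resistant cells. Cxcl9, which attracts CXCR3+ T cells, had 38 UMIs in 4 of 14 sensitive and 45 UMIs in 8 of 31 resistant cells, a ratio of 1.54 (0.971 to 2.42), or 2.54 without its top cell. Cxcl16, a ligand of CXCR6 on T cells, was found in 12 of 14 and 25 of 31 cells, with a ratio of 1.08 (0.757 to 1.52). Of 4 costimulation genes with at least 20 UMIs 0 were past 2-fold, with Cd86 at 1.29 (0.833 to 1.98), Cd83 at 0.997 (0.709 to 1.39) and Slamf7 at 0.523 (0.306 to 0.860). Of the 25 listed maturation genes 5 reached 20 UMIs, of which 1 was past 2-fold higher and 2 were past 2-fold lower in the sensitive cells. Among all genes 5.41% were past 2-fold higher and 4.32% lower. Marcksl1 was at 2.43 and Ccl17 at 0.455, and without the top cell of each they were at 0.254 and 2.41. Tmem123 was at 0.455, with 4 UMIs against 16, and at 0.492 without its top cell.

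Between the classes, genes followed what the cells of each had been found to carry. Since the cells were chosen and split by genes of the same cells, this is a description. Of 1506 genes with at least 50 UMIs in each library, 422 (28%) were past 2-fold the same way in both libraries, 239 (15.9%) higher and 183 (12.2%) lower in members with Ccr7 or Fscn1. The highest named genes were Saa3, an acute-phase protein, with 2582 UMIs in 9 cells of this class in the sensitive library and 178 in 2 cells in the resistant one, and Dcn, Col1a1, Cd63, Krt18, Sparc, Wfdc2 and Igfbp4, most of them matrix or epithelial genes. The lowest were Gpr171, Sult1a1, Naaa, Plbd1, Mpeg1, Xcr1, Rgs10 and Itgae. Naaa had 8 and 7 UMIs in members with Ccr7 or Fscn1 against 390 and 745 in cDC1-like cells, and Mpeg1, a pore protein of phagocytes, 0 and 3 against 129 and 327. MHC class II genes summed to 94.6 per 10000 in members with Ccr7 or Fscn1 and to 632 in cDC1-like cells of the sensitive library, and to 79.1 and 626 in the resistant library. Few cells carried the class sums, which were 569 and 459 in the 3 sensitive and 2 resistant members of the class with Ptprc and little collagen and 43.0 and 50.1 in the rest.

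Members with Ccr7 or Fscn1 also differed between the libraries in which non-leukocyte genes they carried. Collagens of at least 100 UMIs were found in 8 of 17 sensitive and 2 of 10 resistant cells, and keratins of at least 10 UMIs in 11 of 17 and 5 of 10. In level the 5 fibroblast markers summed to 111 and 72.9 per 10000, and the 4 epithelial markers ran the other way, 17.5 and 26.4, with cell medians of 5.67 and 14.6. Of 2264 genes 359 (15.9%) were past 2-fold between the libraries, 270 (11.9%) higher and 89 (3.93%) lower in the sensitive cells, and 204 and 131 once ratios were centred on the median gene, which lay at 0.18 on the log2 scale. The highest were Tnc, a matrix glycoprotein, with 862 UMIs in 11 of 17 cells against 17 in 5 of 10, then Itga5, Trim47, Ass1, Socs1, Pdlim4, Tubb6 and Sec11c, with ratios from 16.4 down to 5.50. The lowest were mt-Atp8, mt-Nd3, Snhg8, Rpl36a, Rps28, Gm9844, Rpl36 and Rpl35, with ratios from 0.200 to 0.379. Of 10 listed chemokine genes with at least 20 UMIs 8 were past 2-fold higher and 1 lower, against 20.1% of 4914 genes past 2-fold, 14.7% higher and 5.43% lower. Cxcl10, an attractant of CXCR3+ T cells, had 304 UMIs in 6 of 17 sensitive cells and 0 in the resistant cells, and Cxcl9 had 100 UMIs in 4 cells against 390 in 3. Leaving out the cell with most Ccl22 or Ccl5 UMIs took those ratios from 3.44 to 0.0702 and from 2.03 to 0.0630. The part of the different mix of cells in these ratios was not tested. Among the members with Ptprc and little collagen, only 3 sensitive and 2 resistant cells, 5 of the 8 highest genes had ratios under 1.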

How the data were processed

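Each library held barcode-by-gene UMI counts that the authors deposited as filtered matrices, made from 10x Chromium 3′ v3 reads with Cell Ranger 6.0.0 per the file headers and mapped to mm10. The sensitive and resistant T cell libraries held 3949 and 6116 barcodes with 31690845 and 35908799 UMIs, and 31 barcode sequences occurred in both, none of them a member. The kept barcodes had median depths of 4981 and 5782 UMIs. The 3 whole-tumor libraries of the series were not used here. Kept barcodes had 500 or more genes and no more than 10% mitochondrial UMIs, and doublets were not removed; 2 sensitive members with Ccr7 or Fscn1 were among the 101 and 84 barcodes of highest Scrublet score, left out as an alternative.

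UMIs were summed per class and library in Python 3.11.15 with numpy 2.4.6, scipy 1.17.1, pandas 2.3.3 and scanpy 1.11.5, scaled to counts per 1000000 UMIs, and compared as ratios with exact conditional binomial intervals. Shares had Clopper-Pearson intervals and ratios of shares had log-scale intervals. A ratio against 0 used 3 UMIs. Thinned shares are the values expected on drawing 2000 UMIs from each cell. Named genes were the 8 highest and 8 lowest ratios per comparison with at least 50 UMIs, seen in at least 10 cells of the higher group and still past 2-fold without the cell that had most, plus listed genes with at least 20 UMIs. Values of some genes are not reported here. Scripts were tested on simulated data. The members and gene lists were chosen with earlier results of these data known. Alternatives changed the filter, rule, floor, scaling and cells included.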

Additional observations from a re-analysis of the deposited data

Results flagged for a closer look

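For each of 18 gene lists, UMIs per 10000 in the sensitive library were divided by those in the resistant library, in cDC1-like members and in macrophage-gated barcodes. The interferon-stimulated list was compared first, after its values were seen, and the others were added later. In 11 of the 18 the ratios lay on opposite sides of 1, several of them by little, so this does not single out any list. These differences were not tested, since each group is 1 library. The interferon-stimulated list had a ratio of 2.20 in cDC1-like members and 0.869 in macrophage-gated barcodes, and the cell cycle list 2.18 and 0.761. The other 9 lists were nearer to 1 in cDC1-like members. The conventional dendritic cell identity list had 1.15 and 0.850, the cDC1 list 1.03 and 0.911, the cDC2 list 0.887 and 1.22, and MHC class II 1.01 and 0.910. Chemokines had 1.03 and 0.856, receptors 1.28 and 0.980, and NF-κB genes 1.02 and 0.820. Innate sensors had 1.13 and 0.783, and immediate-early genes 1.06 and 0.649.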

How the results depend on the processing

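No paired analysis was possible because each group is 1 library, and for the same reason no replicate could be left out. The ratio of cDC1-like shares stayed below 1 under every alternative run, from 0.354 to 0.551, but its interval held 1 without a mitochondrial limit (0.302 to 1.004) and with 3 of the 7 genes asked for (0.272 to 1.07). The interval for all members, which held 1, lay below 1 over barcodes without Cd3e (0.6184, 0.390 to 0.980), with at least 10 H2-Ab1 UMIs (0.562, 0.339 to 0.932) and with barcodes thinned before the rule (0.137 to 0.912). The ratio for all members went from 0.690 to 0.354 when barcodes were thinned to 2000 UMIs before the rule and to 0.948 without a mitochondrial limit, alternatives chosen after seeing the data, as were all those for the cDC1-like share, leaving out each cell in turn, and keeping only cells with both Xcr1 and Clec9a. The share of members with Ccr7 or Fscn1 stayed higher in the sensitive library, at 1.63 to 3.07 times. The interval of the ratio of 2.25, 1.202 to 4.21, came to hold 1 with at least 10 H2-Ab1 UMIs (0.796 to 3.32), with 3 of the 7 genes (0.304 to 30.9), with Ptprc and little collagen (0.456 to 13.04) and at 2000 UMIs (0.6995 to 5.81). This share was 13.3% and 4.35% when 3 of the 7 genes were asked for, and was expected to be 23.4% and 11.6% at 2000 UMIs. Between libraries, the 359 genes past 2-fold in members with Ccr7 or Fscn1 became 42 with 3 of 7 genes, 231 with at least 10 H2-Ab1 UMIs, 52 with Ptprc and little collagen and 990 with a floor of 20 UMIs. A floor of 20 UMIs also raised the 63 genes of cDC1-like cells to 331 and the 422 between classes to 1023. The other alternatives gave 57 to 74 genes in cDC1-like cells. Among 132 listed genes in cDC1-like cells, leaving aside named genes chosen for passing without their top cell, 24 were past 2-fold, of which 10 were past it also without the cell that had most and 2 reversed, Ccl17 at 2.41 and Marcksl1 at 0.254. In members with Ccr7 or Fscn1, Itga5 (0.232), Ass1 (0.511), Socs1 (0.116), Pdlim4 (0.697) and Tubb6 (0.348) reversed when Ptprc and little collagen were required, which leaves 3 and 2 cells. The cause of these shifts was not tested. With 14 and 31 cells, genes under 20 UMIs could not be compared.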

Other observations

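Of 10 glycolysis and hypoxia genes 1 was past 2-fold higher in the sensitive cDC1-like cells, against 5.41% of all genes, and the list's median log2 ratio was 0.44, against 0.06 over all genes. The list summed to 49.5 per 10000 in sensitive and 38.03 in resistant cDC1-like cells, and was also higher in the sensitive library in macrophage-gated (61.3 and 52.5), CD8 T (46.4 and 38.3) and collagen-gated barcodes (32.2 and 24.9) but not in monocyte-gated ones (94.7 and 98.3). Gapdh had a ratio of 1.69 (1.24 to 2.32), the pyruvate kinase gene Pkm 1.41 (1.18 to 1.69) and Aldoa 1.35 (1.17 to 1.57), and these were 1.27, 1.16 and 1.17 without the top cell of each. Bnip3, a hypoxia-induced mitophagy gene, was past 2-fold, at 2.11, or 1.38 without its top cell. Among receptors, Il10ra was at 2.25 (1.13 to 4.54), or 1.36 without its top cell, and Csf2ra, which binds GM-CSF, at 1.51 (1.01 to 2.25).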
